A study of Mus musculus with 6 samples.

Results

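The genes described here are 9 members of the insulin and IGF signalling pathway, read in 6 RNA libraries of GLUTag cells. They are the receptors Insr and Igf1r, the receptor substrates Irs1, Irs2 and Irs4, the phosphoinositide 3-kinase subunits Pik3ca and Pik3r1, and the kinases Akt1 and Akt2. They were chosen by name for their role in the pathway, by a rule that uses no measured value but was made with earlier results of these data known, and they are 9 of the 54281 genes measured. GLUTag is a mouse enteroendocrine line that makes GLP-1, and it was established from a colonic tumour of a transgenic mouse in which the proglucagon promoter drove a viral T antigen, so that all libraries come from 1 tumour line. Wells on plate 1 (passage 23, 3 libraries) and on plate 2 (passage 27, 3 libraries) were harvested 48 h after seeding in medium with 1 g/L glucose and 10% FBS, with no treatment. Plate and passage are the same split and cannot be told apart. The p-values below measure only the spread between these samples, which come from 2 plates of 1 passage each.

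Binding of insulin to Insr, or of IGFs to Igf1r, switches on the tyrosine kinase of the receptor, which phosphorylates docking proteins of the IRS family. These recruit phosphoinositide 3-kinase, a complex of a regulatory and a catalytic subunit, whose lipid product brings AKT kinases to the membrane, from where they act on glucose uptake, protein synthesis, survival and the FOXO transcription factors. In the gut, insulin has been linked to the release of GLP-1 by endocrine cells.

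The libraries held between 21399987 and 36488198 counts, and the plate 2 libraries carry no replicate number here and are called lowest-, middle- and highest-total. Libraries were made from the 3′ ends of polyadenylated transcripts, so that counts are taken not to depend on transcript length. Levels of different genes are compared as CPM, counts per 1e+06 counts of the library. Genes may differ in how well their ends are captured and assigned, which was not tested. Such a difference would recur in each library, and the pair tests below cannot tell it from a difference in level. Where a gene had no count, up to 3 counts remain possible by counting error alone, equal to 0.0822 CPM in the deepest library and 0.14 CPM in the shallowest. The enteroendocrine label was met by its markers: all 7 (Gcg, Chga, Chgb, Scg2, Pcsk1, Neurod1 and Cck) were above 3 counts in every library, with a summed level of 5013 to 6892 CPM. The enterocyte list summed to at most 1.35 CPM, with Apob and Fabp2 at 0, and the leukocyte list to at most 0.493 CPM, with none of its 3 genes above 3 counts in every library. The fibroblast list summed to 4.71 to 7.06 CPM, nearly all from Col1a2, with Lum at 0. Of the goblet list, Tff3 alone stood out at 37.8 ± 2.42 CPM (SD, n = 6), and of the pancreatic beta cell list Mafa did, at 148 ± 24.0 CPM (SD, n = 6).

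All 9 genes were detected in every library, from 26 counts (Irs4) to 4302 counts (Akt1). Akt1 had the highest mean level, 102 ± 16.6 CPM (SD, n = 6), and Irs4 the lowest, 1.78 ± 0.521 CPM (SD, n = 6). Of 12360 genes that reached 1 CPM in each library, ordered from the highest, Akt1 stood at place 1690 and Irs4 at place 12191. As these are bulk libraries, fewer cells with a transcript and less of it per cell cannot be told apart. The coefficient of variation over the 6 libraries lay between 15.1% for Pik3r1 and 29.3% for Irs4.

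**Figure D1:**
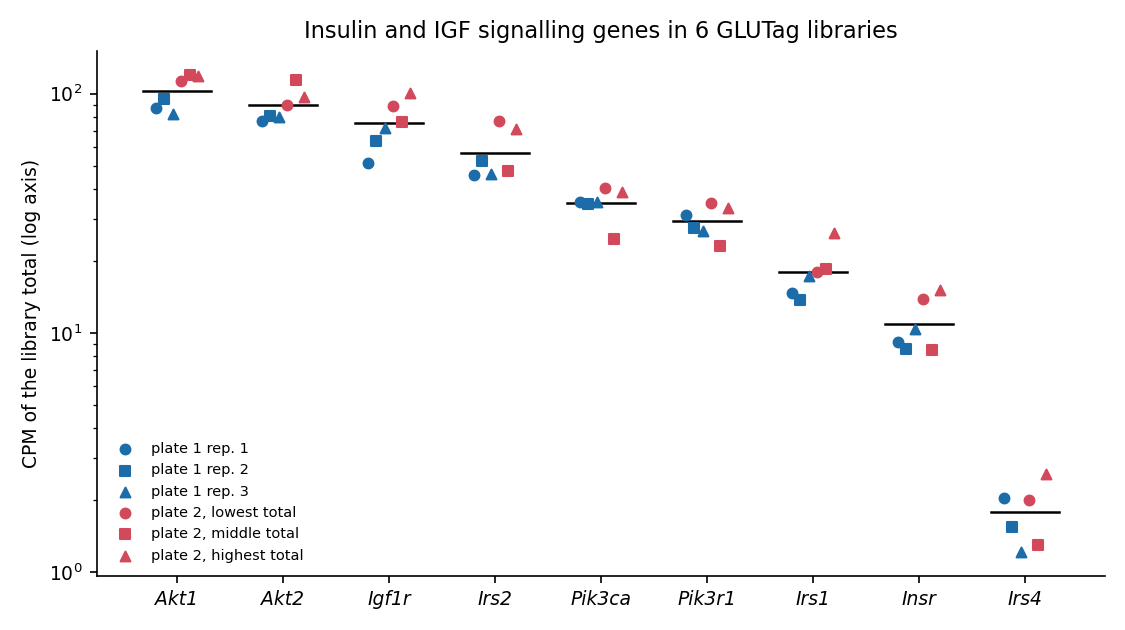
Level of the 9 genes in each library, in CPM of the library total on a log axis, with plate 1 in blue, plate 2 in red and the mean over 6 libraries as a black bar. The means run from 102 CPM for Akt1 to 1.78 CPM for Irs4, and the IGF receptor gene lies above the insulin receptor gene in each library.

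Igf1r was the predominant receptor transcript. Insr (ENSMUSG00000005534.10, chromosome 8 of GRCm38, 3122061 to 3279617, minus strand), the receptor for insulin, had 9.13, 8.53 and 10.3 CPM in replicates 1, 2 and 3 of plate 1 and 13.9, 8.47 and 15.2 CPM in the plate 2 libraries with the lowest, middle and highest total. Igf1r (ENSMUSG00000005533.10, chromosome 7, 67952827 to 68233668, plus strand), the receptor for the insulin-like growth factors, had 51.1, 63.4 and 72.0 CPM on plate 1 and 88.5, 75.9 and 101 CPM on plate 2. The Insr values of the plates overlapped, with the middle-total library as low as plate 1, whereas each Igf1r value of plate 2 was above each of plate 1, as it was for 35.2% of all genes tested in CPM of the library total. With TMM scaling, which corrects for the composition of a library, the Igf1r values overlapped too, since the middle-total library was at 70.3 CPM and plate 1 reached 77.2 CPM. Read positions were not examined, and for both genes the end of 1 annotated transcript on GRCm38 is given, 5′ to 3′. These ends are the last 30 bases, in the last exon, with the polyadenylation hexamer in capitals. They are shown because libraries of this kind are made from 3′ ends. Each stands for 1 of the 5 annotated transcripts of Insr and 1 of the 6 of Igf1r. The annotated span of Insr reaches past the printed end, to 3122061.
Insr, chr8:3150922-3150951, minus strand: taaaatttggAATAAAttatcttgagacta
Igf1r, chr7:68233639-68233668, plus strand: attaagttaAATAAAagaattctgtatgca

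Within each library Igf1r exceeded Insr, by 7.0 ± 1.14-fold in CPM (SD, n = 6), from 5.60-fold to 8.95-fold. On the scale of log2(CPM + 1), Insr minus Igf1r was -2.68 ± 0.21 (SD, n = 6), negative in 6 of 6 libraries (exact two-sided sign-flip permutation test, p = 0.03125, and 0.03125 after adjustment over 6 pairs). This is the smallest p that 6 libraries allow, and the pairs were chosen with earlier results known. The test does not take into account that libraries of a plate share that plate and its passage. The difference was -2.60 on plate 1 and -2.76 on plate 2. Igf1r thus made up 87.3 ± 1.71% (SD, n = 6) of the summed level of the 2 receptors, with a range from 84.8% to 90.0%. Their relative Insrr, a receptor of the same family, had at most 7 counts in any library. Igf2r, which takes up IGF-2 for degradation and has no kinase, had 44.1 ± 18.5 CPM (SD, n = 6), between the levels of Insr and Igf1r.

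Irs2 was the most abundant of the 3 receptor substrate transcripts, Irs1 came second and Irs4 was detected at a low level. Protein of these genes and its use by the receptors were not measured. Irs1 (ENSMUSG00000055980.2, chromosome 1, 82233101 to 82291416, minus strand) had 14.6, 13.7 and 17.3 CPM on plate 1 and 18.0, 18.5 and 26.1 CPM on plate 2, in the same order of libraries as above. Irs2 (ENSMUSG00000038894.7, chromosome 8, 10984681 to 11008458, minus strand) had 45.8, 52.5 and 46.0 CPM on plate 1 and 76.8, 47.4 and 71.0 CPM on plate 2. Irs4 (ENSMUSG00000054667.7, chromosome X, 141710998 to 141725263, minus strand) had 2.04, 1.55 and 1.21 CPM on plate 1 and 1.99, 1.29 and 2.58 CPM on plate 2, from 49, 35, 26, 56, 40 and 94 counts. In CPM of the library total each Irs1 value of plate 2 was above each of plate 1, as for 35.2% of all genes tested. With TMM scaling the Irs1 values overlapped, as plate 1 reached 18.5 CPM and plate 2 began at 16.2 CPM. Irs2 of the middle-total library and Irs4 of the lowest- and middle-total libraries fell within the range of plate 1. The 3 genes encode docking proteins that the receptors phosphorylate, Irs1 and Irs2 being the broadly expressed forms and Irs4 a form found in few tissues.

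Irs2 exceeded Irs1 by 3.19 ± 0.702-fold in CPM (SD, n = 6), from 2.57-fold to 4.26-fold, and the log2 difference of CPM + 1 was 1.59 ± 0.29 (SD, n = 6; exact permutation p = 0.03125, adjusted 0.03125). Irs1 exceeded Irs4 by 10.6 ± 2.97-fold in CPM (SD, n = 6), with a log2 difference of 2.77 ± 0.29 (SD, n = 6; exact permutation p = 0.03125, adjusted 0.03125). Irs2 exceeded Irs4 by 32.8 ± 6.49-fold in CPM (SD, n = 6), with a log2 difference of 4.36 ± 0.24 (SD, n = 6; exact permutation p = 0.03125, adjusted 0.03125). The order Irs2, Irs1, Irs4 therefore held in 6 of 6 libraries. Of the summed level of the 3 substrates, Irs2 made up 73.9 ± 3.68%, Irs1 23.8 ± 3.70% and Irs4 2.33 ± 0.527% (SD, n = 6). The smaller log2 difference than the fold implies for the pairs with Irs4 follows from adding 1 CPM to a gene of 1.78 CPM.

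The promoters of the 3 substrates shared short sequences, which were looked for after the sequences had been seen. RefSeq windows from 250 bases before to 50 bases after the start were given on GRCm38.p6 for 8 of the 9 genes, all but Insr, in 13 windows, as some genes have several starts. The windows of Irs1, Irs2 and Irs4 are printed 5′ to 3′ on the strand of the gene, with each match to CACGTG (an E-box, the same on both strands) or TGTTTTG (a core of the insulin response element, searched on both strands) in capitals.
Irs1, chr1:82291390-82291689, minus strand: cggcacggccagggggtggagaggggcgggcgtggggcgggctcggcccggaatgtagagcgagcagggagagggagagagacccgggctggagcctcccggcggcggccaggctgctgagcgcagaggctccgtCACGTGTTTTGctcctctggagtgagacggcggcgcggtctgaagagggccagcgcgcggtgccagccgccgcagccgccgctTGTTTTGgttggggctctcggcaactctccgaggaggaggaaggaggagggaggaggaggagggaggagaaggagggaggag
Irs2, chr8:11008880-11009179, minus strand: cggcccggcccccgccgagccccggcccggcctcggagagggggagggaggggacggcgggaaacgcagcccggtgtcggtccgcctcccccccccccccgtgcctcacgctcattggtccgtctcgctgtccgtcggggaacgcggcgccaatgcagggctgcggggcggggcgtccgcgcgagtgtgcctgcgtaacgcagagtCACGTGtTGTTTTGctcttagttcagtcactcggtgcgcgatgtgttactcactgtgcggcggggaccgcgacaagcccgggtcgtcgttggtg
Irs4, chrX:141725168-141725467, minus strand: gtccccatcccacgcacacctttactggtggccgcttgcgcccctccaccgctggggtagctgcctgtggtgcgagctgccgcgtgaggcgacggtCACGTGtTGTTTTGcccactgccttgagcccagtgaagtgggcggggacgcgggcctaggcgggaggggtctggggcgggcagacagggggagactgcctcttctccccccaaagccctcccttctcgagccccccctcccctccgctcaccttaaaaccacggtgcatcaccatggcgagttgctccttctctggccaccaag

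In Irs2 and Irs4 both motifs stood in 1 run of 17 shared bases, GTCACGTGTTGTTTTGC, which began 46 bases before the start in Irs2 and 156 bases before it in Irs4. This run was in 2 of the 32851 promoter windows of the RefSeq table, these 2. It is the longest run shared by windows of different members, so its presence in both was fixed by the choice. In Irs1 both motifs overlapped by 2 bases, with CACGTG beginning 115 and TGTTTTG 111 bases before the start, and a further TGTTTTG followed at 32 bases. CACGTG was in 7.15% of all windows and TGTTTTG in 6.28%, and 0.408% of windows (134) had both. Among the 8 genes with a window, Irs1, Irs2 and Irs4 were the ones with either motif. As both motifs lie within the shared run, Irs2 and Irs4 were bound to hold them. These matches describe the letters of a window and are not binding sites.

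Transcripts of the alpha catalytic and alpha regulatory subunits of phosphoinositide 3-kinase were found at similar levels. Pik3ca (ENSMUSG00000027665.13, chromosome 3, 32397671 to 32468486, plus strand), the catalytic subunit, had 35.3, 34.6 and 35.1 CPM on plate 1 and 40.3, 24.7 and 38.9 CPM on plate 2. Pik3r1 (ENSMUSG00000041417.15, chromosome 13, 101680563 to 101768217, minus strand), the regulatory subunit that docks on phosphorylated IRS proteins, had 31.2, 27.4 and 26.6 CPM on plate 1 and 34.8, 23.1 and 33.2 CPM on plate 2. For both genes the middle-total library of plate 2 was the lowest of the 6, and the plates overlapped in CPM of the library total. With TMM scaling Pik3ca was at 22.9 to 36.1 CPM on plate 2, below all of plate 1 (37.6 to 39.1 CPM), as were 12% of all genes, and Pik3r1 still overlapped. Pik3ca was higher than Pik3r1 in each library, by 1.19 ± 0.0901-fold in CPM (SD, n = 6), from 1.07-fold to 1.32-fold. Pik3r1 minus Pik3ca was -0.24 ± 0.11 on the log2 scale of CPM + 1 (SD, n = 6; exact permutation p = 0.03125, adjusted 0.03125). The transcript ends of both genes, the last 30 bases as above, are shown because their hexamers lie at opposite ends of this window, 10 bases before the end of the annotated Pik3ca transcript and 30 bases before that of Pik3r1. Each is of 1 transcript, out of 4 annotated for Pik3ca and 7 for Pik3r1.
Pik3ca, chr3:32468457-32468486, plus strand: ttgtcatttggtcttagctgAATAAAatct
Pik3r1, chr13:101680563-101680592, minus strand: AATAAAtacctctaggtggtatcatttcaa

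Both were the leading gene of their kind. Pik3ca made up 64.1 ± 7.94% (SD, n = 6) of the summed level of the 4 catalytic genes, followed by Pik3cd with 20.6 ± 3.87% and Pik3cb with 15.3 ± 4.35%, and Pik3cg had a count of 0 in all 6 libraries. Pik3r1 made up 54.2 ± 5.79% (SD, n = 6) of the 5 regulatory genes compared, followed by Pik3r3 with 22.8 ± 4.00% and Pik3r2 with 22.8 ± 3.27%. Each share was lowest in the middle-total library, 49.0% for Pik3ca and 42.4% for Pik3r1, where each gene still ranked first of its kind.

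Transcripts of Akt1 and Akt2, the kinases that carry the signal onward, were the most abundant of the 9. Akt1 (ENSMUSG00000001729.14, chromosome 12, 112653821 to 112674884, minus strand) had 86.7, 94.6 and 82.5 CPM on plate 1 and 113, 120.0 and 118 CPM on plate 2. Akt2 (ENSMUSG00000004056.15, chromosome 7, 27591552 to 27640826, plus strand), the form best known for insulin-driven glucose uptake, had 76.5, 80.6 and 79.9 CPM on plate 1 and 89.2, 114 and 96.8 CPM on plate 2. In CPM of the library total, all plate 2 libraries were above all plate 1 libraries for both genes, which again was so for 35.2% of all genes, and the middle-total library was the highest of the 6. With TMM scaling the plates overlapped, at 88.4 to 107 CPM and 102 to 111 CPM for Akt1 and at 83.5 to 91.0 CPM and 80.0 to 106 CPM for Akt2. Akt1 was higher than Akt2 in 6 of 6 libraries, but by little: 1.15 ± 0.0926-fold in CPM (SD, n = 6), from 1.03-fold to 1.27-fold. The log2 difference of CPM + 1 was 0.19 ± 0.12 (SD, n = 6; exact permutation p = 0.03125, adjusted 0.03125). Akt1 made up 53.3 ± 2.02% (SD, n = 6) of the summed level of both genes. The last 30 bases of both transcripts are shown, as above, because these 2 genes lie closest in level. Each is of 1 transcript, out of 9 annotated for Akt1 and 14 for Akt2.
Akt1, chr12:112653821-112653850, minus strand: aaattcAATAAAaattgcttttcaagcttg
Akt2, chr7:27640797-27640826, plus strand: taatcaaaAATAAAaataaggctccatctt

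**Figure D2:**
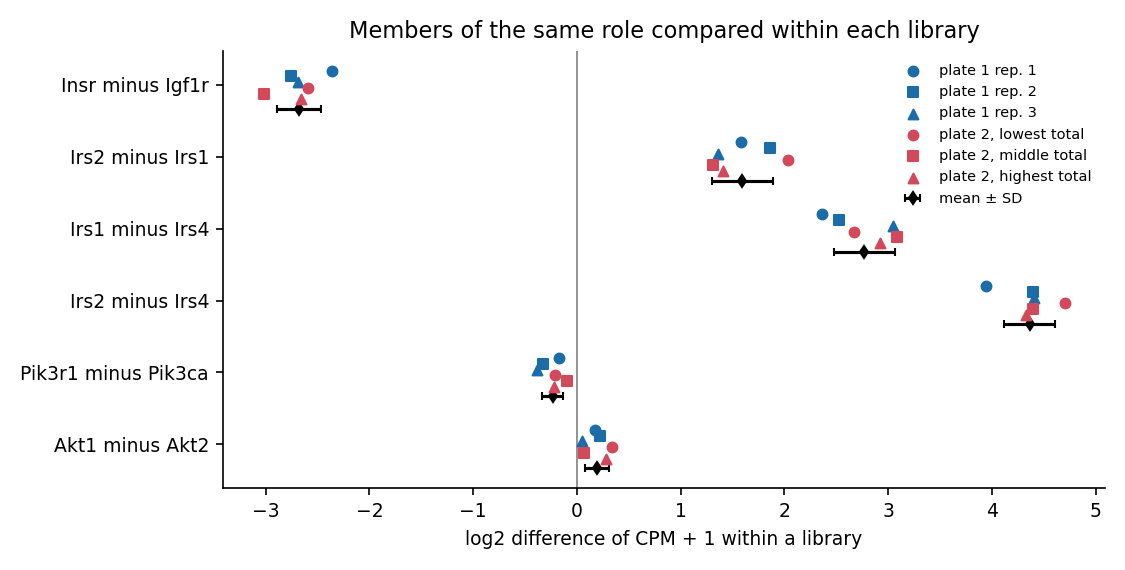
Log2 difference of CPM + 1 between genes of the same role within each library, with plate 1 in blue, plate 2 in red and the mean ± SD over 6 libraries as a black diamond. Each of the 6 pairs lies on 1 side of 0 in all libraries, from -2.68 for Insr minus Igf1r to 4.36 for Irs2 minus Irs4, and Akt1 minus Akt2 comes closest to 0 at 0.19.

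Ordered by mean level, the genes ran Akt1, Akt2, Igf1r, Irs2, Pik3ca, Pik3r1, Irs1, Insr and Irs4. Of the 8 neighbouring pairs, 7 kept their order in 6 of 6 libraries, with mean log2 differences of CPM + 1 from 0.19 (Akt1 and Akt2) to 2.09 (Insr and Irs4). The exception was Akt2 and Igf1r, whose difference of 0.27 ± 0.28 (SD, n = 6) was within 1 SD and which kept their order in 5 of 6 libraries. In the highest-total library of plate 2, Igf1r was at 101 CPM and Akt2 at 96.8 CPM.

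The annotation placed other genes, under 8 names, over 7 of the members, all but Igf1r and Akt2, each with at most 0.262 CPM on average. The last 500 bases of the transcripts were free of other genes except for Irs1, where Gm9747 lies on the opposite strand with a count of 0 in all libraries. On the strand of the member, separate entries named Gm36638 within the span of Pik3r1 had 0.255 CPM and a count of 0. Gm37123 within that of Pik3ca had 0.0388 CPM and Mir6939 within that of Akt1 a count of 0. On the opposite strand, the genes at Insr and Irs4 had a count of 0, and 9530052E02Rik, opposite the start of Irs2, had 0.262 CPM. The strand setting of the counting is not given in the sources used here.

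The ligands were at or near the limit of detection. Ins1 and Ins2, the mouse insulin genes, had a count of 0 in all 6 libraries. Igf1 had at most 1 count and Igf2 at most 4 counts in any library, or a mean of 0.0743 CPM for Igf2. Of the 63 further genes of the pathway, 50 had more than 3 counts in every library, against 9 of the 9 members. The median level of the members was 34.8 CPM, above the median of each of the other roles, which ran up to 23.9 CPM for the kinases acting on AKT and their partners.

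Around the receptors, 4 of 9 further receptors and IGF-binding proteins exceeded 3 counts in every library, led by Igf2r and by Igfbp7 with 11.9 ± 3.01 CPM (SD, n = 6). Of the adaptors and brakes at the receptor 13 of 14 did, led by Grb2, which links receptors to the Ras pathway, with 137 ± 12.5 CPM, and Ptpn1, a phosphatase that dephosphorylates the insulin receptor, with 82.0 ± 10.4 CPM (SD, n = 6). Ptpn1 was higher than Insr, with a mean level within the spread of Igf1r. Of the other PI 3-kinase subunits 4 of 7 did, with Pik3r2 at 12.4 ± 2.28 CPM and Pik3r3 at 12.4 ± 2.52 CPM (SD, n = 6). All 5 phosphatases compared did, led by Inppl1 with 46.4 ± 7.74 CPM and Inpp4b with 9.71 ± 2.80 CPM (SD, n = 6), which act on the inositol lipids of the pathway. All 5 of the kinases acting on AKT and their partners did, with Pdpk1, which phosphorylates AKT, at 54.6 ± 11.5 CPM and Rictor, a subunit of the mTOR complex that does so too, at 24.2 ± 7.55 CPM (SD, n = 6). All 19 targets did, led by Gsk3b with 145 ± 27.2 CPM and Bad with 128 ± 15.9 CPM (SD, n = 6), both inhibited by AKT.

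**Figure D3:**
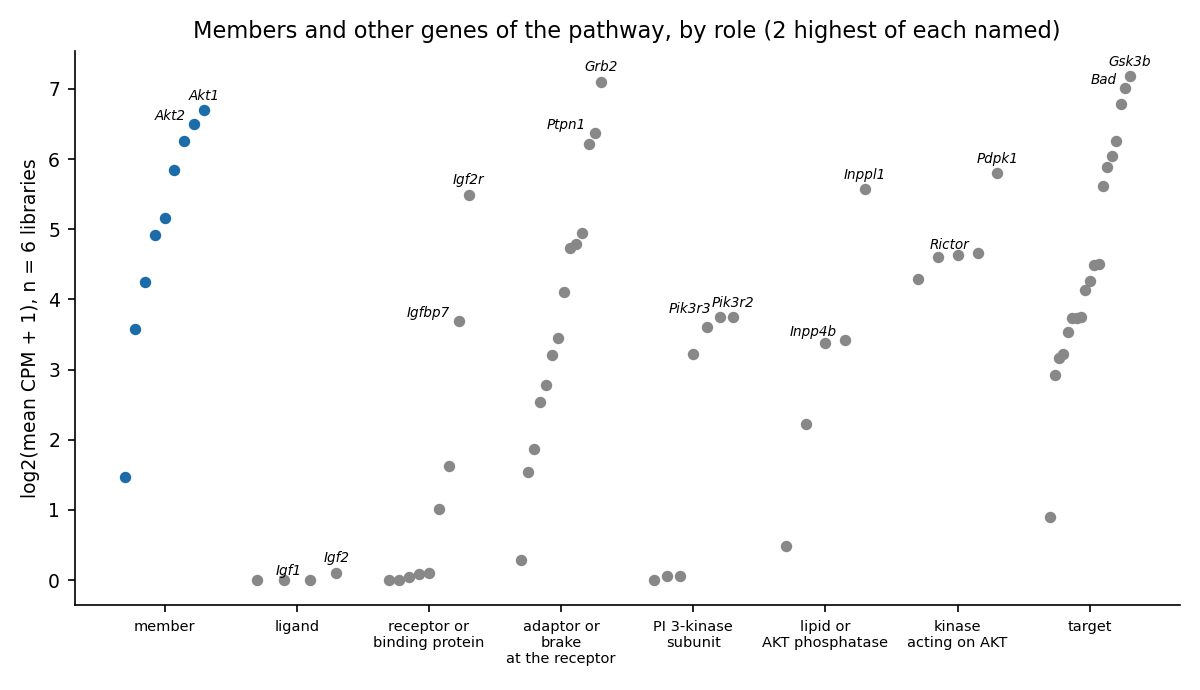
Mean level over 6 libraries, as log2(mean CPM + 1), of the 9 members (blue) and of 63 further genes of the pathway (grey) by role, with the highest 2 of each role named. The 4 ligands lie at or near 0, whereas the members reach from 1.78 to 102 CPM.

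Whether the genes differed between the plates was asked with edgeR's quasi-likelihood test across 15669 genes with TMM scaling. None of the 9 members passed an adjusted p of 0.05, as against 0.185% of all genes (29 genes). None had an unadjusted p under 0.05 by edgeR (16.1% of all genes), DESeq2 (14.7% of all genes) or limma-voom (16.6% of all genes). The log2 changes from plate 1 to plate 2 ran from -0.29 (SE 0.18, adjusted p = 0.480) for Pik3ca to 0.24 (SE 0.16, adjusted p = 0.500) for Igf1r. The test gives no SE itself, and SE here is the absolute log2 change divided by the square root of its F value. Insr (0.15, SE 0.22), Irs1 (0.19, SE 0.18), Irs2 (0.16, SE 0.18), Irs4 (0.02, SE 0.35), Akt1 (0.14, SE 0.12) and Akt2 (0.07, SE 0.13) were positive and Pik3r1 (-0.17, SE 0.17) was negative. The median of the members was 0.14 and that of all genes tested 0.03, with quartiles of -0.20 and 0.25.

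In CPM of the library total, the summed level of the members was 352 to 377 CPM on plate 1 and 433 to 502 CPM on plate 2. The plates did not overlap for 4 members, Igf1r, Irs1, Akt1 and Akt2, all higher on plate 2, while 35.2% of all genes tested were higher on plate 2 in this way. With TMM scaling 0 members were higher without overlap (12.8% of all genes) and 1 was lower, Pik3ca (12% of all genes). The scaling moved the median of all genes by 0.27 on the log2 scale: with the library total alone it was 0.30, that of the members was 0.41, and Akt1 alone of them was called, at 0.41 (edgeR adjusted p = 0.0453, with a range up to 0.837 over the alternatives), as were 9.32% of all genes with this scaling. At an unadjusted p under 0.05 there were then 5 of the 9 members and 32% of all genes. Relative to that median, Akt1 was 0.11 higher under either scaling.

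**Figure D4:**
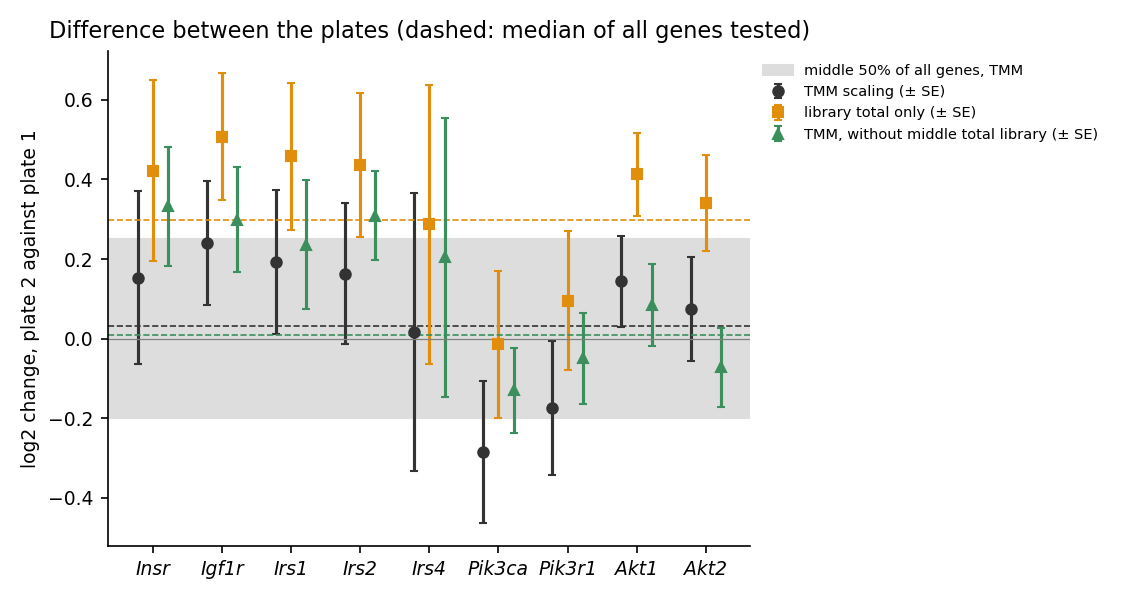
Log2 change from plate 1 to plate 2 of each member by edgeR, with the SE derived from the F value as bars. The settings are TMM scaling, the library total only and TMM scaling without the middle-total library. Dashed lines give the median of all genes tested under each setting and the grey band the middle 50% of all genes with TMM scaling. With TMM scaling the members run from -0.29 to 0.24.

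Of the further pathway genes, 49 could be tested and 0 were called by edgeR, DESeq2 or limma-voom. Of all 15669 genes tested, edgeR called 29, DESeq2 584 and limma-voom 10. At an unadjusted p under 0.05 there were 7 of these pathway genes by edgeR, 5 by DESeq2 and 8 by limma-voom, beside 16.1%, 14.7% and 16.6% of all genes. The median log2 change of these pathway genes was 0.06.

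The middle-total library of plate 2 was below both other libraries of its plate for 6 of the 9 members and above both for Akt1 and Akt2. The share of all genes below or above both was not counted, so this is not read as a trait of the members. Its log2 difference of CPM + 1 from the mean of the others was -0.71 for Insr, -0.66 for Pik3ca, -0.63 for Irs2, -0.54 for Pik3r1, -0.51 for Irs4, -0.31 for Igf1r and -0.22 for Irs1, but 0.05 for Akt1 and 0.29 for Akt2. Over the 10428 genes with at least 5 CPM the median was -0.03, with quartiles of -0.39 and 0.23, so that Insr, Pik3ca, Irs2 and Pik3r1 lay under the lower quartile, Akt2 above the upper one and Igf1r, Irs1 and Akt1 between them, where 50% of all genes lie. Irs4, with under 5 CPM, is not among these genes and its value is not comparable with the quartiles. Akt1 and Akt2 were the members with the highest GC content in the last 200 bases of the transcript, 47% and 47.5%, next to 44.5% for Pik3ca and 30% to 38.5% for the other 6. The enteroendocrine markers moved in this library as well: Gcg, Scg2 and Neurod1 were below both other libraries of the plate and Chga, Chgb, Pcsk1 and Cck above both. Scg2 was at 32.1 CPM against 98.6 and 124 CPM, and Cck at 1438 CPM against 958 and 615 CPM, in the lowest- and highest-total libraries. The part of GC content or of cell identity in this pattern was not tested.

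Without this library, 3 members had an unadjusted p under 0.05 by edgeR, as had 26.8% of all genes, and none passed after adjustment, as 12% of all genes did: Insr at 0.33 (adjusted p = 0.170), Igf1r at 0.30 (adjusted p = 0.160) and Irs2 at 0.31 (adjusted p = 0.0852). Over all alternatives their adjusted p ran from 0.170 to 0.989, from 0.0741 to 0.869 and from 0.0852 to 0.956. These 3 were also the members higher on plate 2 without overlap in TMM-scaled CPM, as were 23.1% of all genes, and Pik3ca was lower, as were 20.2% of all genes. This count without the library was added after the data had been seen.

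**Figure D5:**
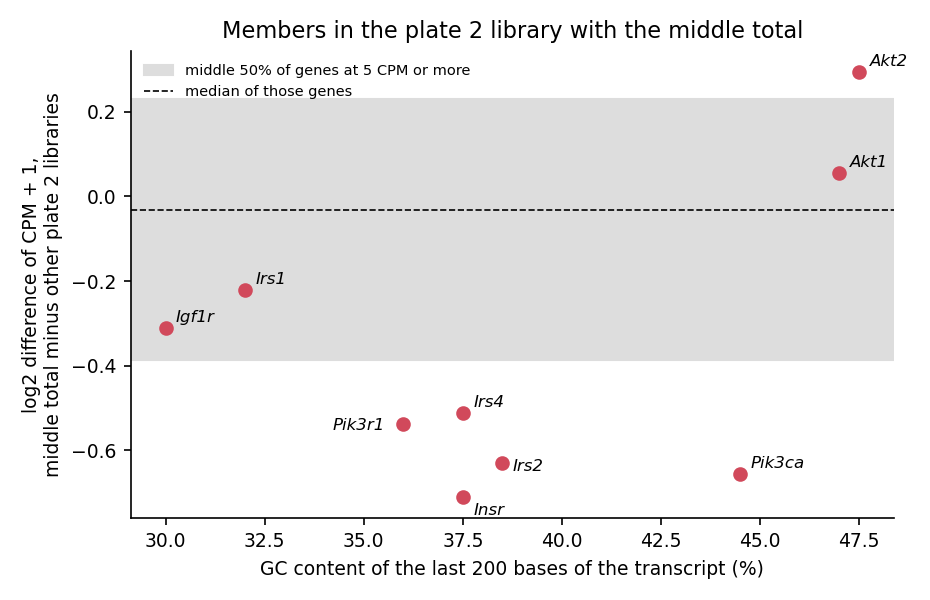
Log2 difference of CPM + 1 between the middle-total library and the mean of the other libraries of plate 2 for each member, against the GC content of the last 200 bases of its transcript. The grey band spans the middle 50% of 10428 genes with at least 5 CPM, to which Irs4 does not belong. Akt1 and Akt2, at 47% and 47.5% GC, lie above 0 and the other 7 members below it.

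Across the 6 libraries, with TMM scaling, the genes most like Insr among 9466 genes that reached 5 CPM in each library were Gm49336 (Pearson's r = 0.998), Sema4a (0.996) and Wdr11 (0.995), and 180 genes had an r above 0.95. Those most like Igf1r were Trafd1 (0.986), Hsd17b4 (0.983) and Ctnnal1 (0.983), and 17 genes had an r above 0.95. Between Insr and Igf1r r was 0.64, between Insr and Irs2 0.80 and between Insr and Akt2 -0.73. These values describe 6 libraries that share 2 plates, and the middle-total library was the lowest of the 6 for Insr.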

How the data were processed

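RNA was measured in 6 libraries of untreated GLUTag cells, 3 from each of 2 plates. The authors trimmed the reads (Trim Galore 0.6.4), assigned them with Salmon 1.5.1 to transcripts and decoys of GRCm38 (GENCODE M23) with the length correction switched off, and summed them by gene. The deposited values are expected counts, not normalized. Between 7.08% and 8.89% of the values of a library, as deposited and with no tolerance, are not exactly whole, but all 54 values of the members are. Plate 1 columns were matched to replicates, and plate 2 columns to the plate only.

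Counts were divided by the library total to give CPM, and rounded to whole numbers for edgeR 4.0.16 (robust quasi-likelihood test after TMM scaling and filterByExpr; genes with an adjusted p under 0.05 after Benjamini-Hochberg adjustment are called) in R 4.3.3. For pairs of members, the log2 difference of CPM + 1 in each library entered a two-sided exact permutation test that flips signs, adjusted over 6 pairs by the same method. DESeq2 1.42.0, limma-voom 3.58.1, other filters, scalings and pseudocounts, and the omission of each library were the alternatives. The edgeR fit was tested only on simulated data with larger changes than those of the members, so the test does not cover changes of their size. Positions and overlaps are from GENCODE M21 on GRCm38, in which 54107 of the 54281 gene identifiers were found, and promoters from RefSeq on GRCm38.p6. Python 3.11.15 with scipy 1.17.1 was used.

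The members, the pairs and the pathway and marker lists were chosen with earlier results of these data known. Named are all members, all ligands, the highest 2 genes of each other role by mean CPM, genes past the test, and the 3 genes most like Insr and Igf1r. Insrr, Gm9747, Gm36638, Gm37123, Mir6939, 9530052E02Rik, Sh2b1, Grb14, Akt1s1, the other PI 3-kinase subunits and pathway genes called under an alternative were named after their values were seen. Some genes of the pathway lists are not reported here.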

Additional observations from a re-analysis of the deposited data

Results flagged for a closer look

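Of the 59 levels of members and further pathway genes that were checked over the 6 libraries, 5 had 1 outlying library. This library was farther from the others than Dixon's 95% critical value. About 1 in 20 would be so by chance if the values were independent and normally distributed. The 5 all concern the plate 2 library with the middle total, so they cannot be counted as independent. The share of all genes past this value was not counted.

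Among the members this was Pik3ca, the catalytic subunit, at 24.7 CPM against 34.6 to 40.3 CPM in the other 5 libraries, a gap of 0.637 of the whole range. Without this library its mean level was 36.8 CPM in place of 34.8 CPM.

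The other 4 genes act beside the members. The phosphatase Inpp4b was at 4.27 CPM against 9.67 to 11.9 CPM and the adaptor Grb14 at 2.52 CPM against 6.10 to 7.32 CPM, both lowest in this library. The adaptor Sh2b1 was at 44.4 CPM against 23.5 to 28.4 CPM and Akt1s1, a target of AKT, at 14.0 CPM against 9.07 to 10.7 CPM, both highest in it.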

How the results depend on the processing

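No paired analysis was made, because the plates share no replicate number in the labels. The columns of plate 2 are numbered within the plate, and nothing ties these numbers to those of plate 1. The number of genes that differed between plates depended on the setting: against 29 (2 higher and 27 lower on plate 2), it was 584 by DESeq2, 10 by limma-voom, 545 without a filter on low counts and 1461 (1390 higher and 71 lower) with the library total only. Leaving out 1 library in turn gave 0 to 1911 genes: 0 without plate 1 replicate 1 (1611 at an unadjusted p under 0.05) or without the lowest-total library of plate 2 (2121), 2 without plate 1 replicate 2, 6 without replicate 3, 9 without the highest-total library and 1911 without the middle-total library. None of these 6 fits called a member, and over all settings the library total alone called 1, Akt1.

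The log2 change of some members turned its sign. Irs4 was at -0.0052 by DESeq2 and Pik3r1 at 0.096 with the library total only. When 1 library was left out, Insr ran from -0.011 to 0.33, Irs1 from -0.00055 to 0.30, Irs4 from -0.24 to 0.22 and Akt2 from -0.073 to 0.16, and the cause was not tested. In the same fits Igf1r ran from 0.11 to 0.34, Irs2 from 0.039 to 0.31 and Akt1 from 0.082 to 0.22. Pik3r1 ran from -0.27 to -0.0497 and Pik3ca from -0.39 to -0.13. Among the further genes of the pathway, the library total alone called 6 (Mlst8, Rps6kb2, Tsc1, Mtor, Tbc1d1 and Tbc1d4, all higher on plate 2) of 49, beside 9.32% of all genes (18 at an unadjusted p under 0.05, beside 32%), and the omission of the middle-total library called 2 (Bad lower, Tbc1d4 higher) of 50, beside 12% of all genes (12 at an unadjusted p under 0.05, beside 26.8%).

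The direction of the pair differences could not change with the pseudocount, the scaling or the libraries taken, since each pair lay on 1 side in all 6 libraries. Their size did: Irs2 minus Irs4 came to 4.93 when the pseudocount was 0.1 CPM and to 3.16 when it was 5 CPM. With TMM scaling, DESeq2's size factors or totals without mitochondrial genes, the mean level of each member moved by less than 1 SD. Depth limits the ligands and Irs4, whose lowest library had 26 counts.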
